A study of Mus musculus with 16 samples.

Results

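Livers of mice carrying a heterozygous deletion of Tip30 were compared with wild-type livers, across every gene whose mean over the 8 libraries of these groups reached 10 normalized counts. That covered 15022 of the 30199 genes listed and 8 of the 16 samples of the series. The Tip30+/- mice were Ncoa5+/+Tip30+/- and the wild-type mice Ncoa5+/+Tip30+/+. All were females aged 5 months on a standard diet and a 12:12 light and dark cycle, with 4 mice per group and 1 library per mouse. The other 8 mice, which were Ncoa5+/- or Ncoa5+/-Tip30+/-, give the same deletion on a Ncoa5+/- background and share no library with the main comparison. RNA came from a frozen piece of liver, labelled as mainly hepatocyte, and messenger RNA was selected by its poly(A) tail. The labels name no promoter or Cre driver for the deletion, and the strain was not given in the sources used here.

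Tip30, whose gene symbol is Htatip2, is a protein of the short-chain dehydrogenase family and is studied as a tumour suppressor in liver and other tissues. It has been linked to the trafficking of growth factor receptors through endosomes, to nuclear import and to transcription. A mouse with 1 deleted allele keeps the other, so its liver tests a lower dose of the gene and not its absence.

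Wild-type libraries held 26058724 to 37939978 reads on genes, and Tip30+/- libraries 30574997 to 35978055. Mitochondrial genes took 5.04% to 5.65% of reads in wild type and 4.96% to 5.80% in Tip30+/-. All 16 hepatocyte markers listed were detected above the level filter, with a summed value of 3004000 to 4386000 in wild-type livers and 3591000 to 4289000 in Tip30+/- livers. Libraries stood apart in both groups. Wild type 1 and 2 had Zhx2, a repressor of fetal liver genes, at 19.4 and 26.3. It stood at 438 and 204 in wild type 3 and 4, and the Tip30+/- livers ranged from 271 to 431. Tip30+/- 4 differed from the other 3 Tip30+/- livers in a set of processed gene copies described below. The mice also fall into 2 ranges of the tag numbers in their titles: wild type 1 and 2 and Tip30+/- 1 to 3 carry numbers under 4300, and the other 3 mice carry higher ones. What these tag ranges stand for was not given in the sources used here.

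The 2 groups were close to each other over the transcriptome. The median log2 change was 0.01 and 92.97% of genes lay within 1.5-fold. By limma with Benjamini-Hochberg adjustment over all genes, 2 of 15022 genes passed at an adjusted p below 0.05, which is 0.0133% of those tested. Htatip2 fell and Hcn3 rose, so each direction held 0.00666%. At an unadjusted p below 0.05 there were 1106 genes (7.36%), 529 of them higher and 577 lower. In 675 genes (4.49%) every Tip30+/- liver lay above or below every wild-type liver, with 307 higher and 368 lower. Scaling by total reads in place of the size factors gave 188 higher and 513 lower of 701, so the balance of directions depends on the scaling. On the recovered whole reads, edgeR's quasi-likelihood test called 9 genes (0.0599%) and DESeq2 called 43 (0.286%). The p-values measure the spread between these mice. In whole liver, fewer cells of a type and less RNA per cell cannot be told apart.

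Htatip2 (ENSMUSG00000039745, chr7:49759115-49773975 on the plus strand of GRCm38) is the targeted gene and checks the labels. Its normalized counts in wild type 1 to 4 were 2196, 2210, 1835 and 1994. In Tip30+/- 1 to 4 they were 685, 710, 986 and 741. Every Tip30+/- liver lay far below every wild-type liver, and Tip30+/- 3 was the highest of them. Htatip2 fell by 1.41 on the log2 scale (SE 0.13, 95% interval -1.68 to -1.14, limma adjusted p = 5.98e-05), and the exact two-sided permutation p was 0.0286, the smallest that 4 against 4 mice can give. Within the lower tag range the difference was -1.49 and within the higher one -1.37. Its sign in both was fixed by groups that do not overlap.

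Hcn3 (ENSMUSG00000028051, chr3:89146074-89160196, minus strand) encodes a channel that opens on hyperpolarization and is modulated by cyclic nucleotides, and it is the gene of the series title. Its normalized counts were 440, 262, 271 and 423 in wild type 1 to 4. They were 1155, 1121, 1224 and 1047 in Tip30+/- 1 to 4. The lowest Tip30+/- liver stood well above the highest wild-type liver, and neither the pair low in Zhx2 nor Tip30+/- 4 departed from its group. Hcn3 rose by 1.74 on the log2 scale (SE 0.23, limma adjusted p = 0.00988, exact permutation p = 0.0286). The adjusted p ran from 1.22e-09 to 0.0664 over the settings tried. It missed the threshold with Zhx2 as a covariate (0.0571) and without wild type 2, Tip30+/- 1 or Tip30+/- 3. The difference was 1.78 within the lower tag range and 1.63 within the higher one. Of the other HCN channels only Hcn2 was high enough to test, at 8.41 to 24.3 in wild type and 14.6 to 25.1 in Tip30+/- livers. Those ranges overlap, and Hcn2 did not pass.

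Pklr encodes the pyruvate kinase of liver and red cells and lies beside Hcn3 on the opposite strand (chr3:89136142-89146784, plus strand), where the annotated ends of the genes overlap. No strand marking is stated for the libraries, so reads from the shared stretch cannot be told apart. The normalized counts of Pklr were 8862, 6390, 5087 and 6150 in wild type 1 to 4 and 12169, 9648, 13021 and 13267 in Tip30+/- 1 to 4. The groups did not overlap, although Tip30+/- 2 lay near wild type 1. Its log2 difference was 0.88 (SE 0.20, limma adjusted p = 0.241, with 0.0111 to 0.893 over the settings tried). Without the 4 libraries low in Zhx2, which include 2 Ncoa5+/- libraries, Pklr passed (adjusted p = 0.0296). That fit called 6 genes (0.0399%), among them Htatip2 lower and Hcn3, Pklr, Ntrk2 and Timp3 higher.

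**Figure D1:**
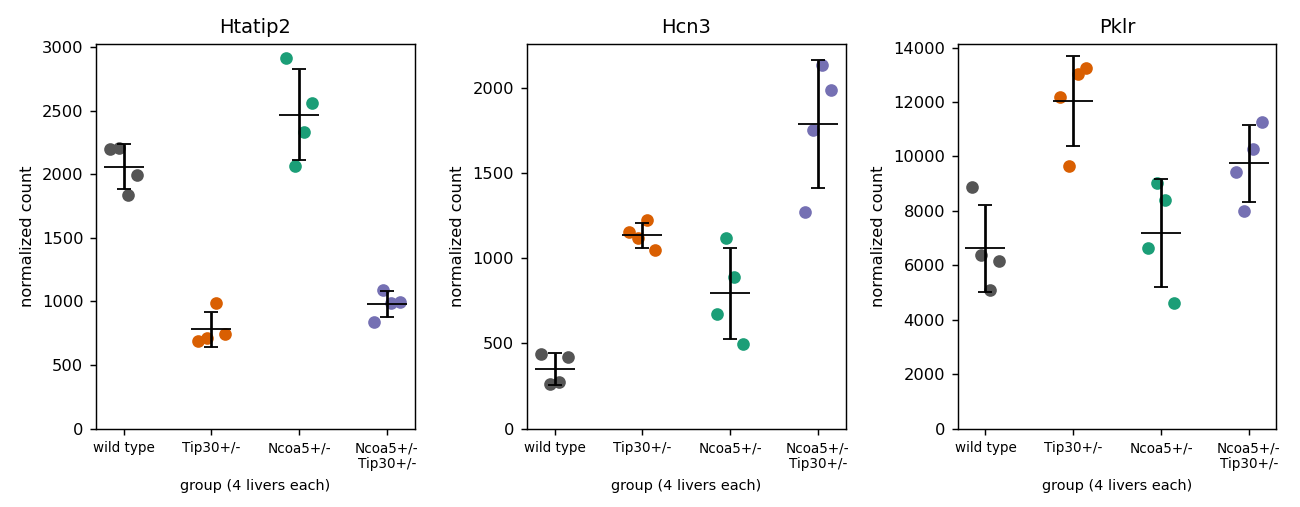
Normalized counts of Htatip2, Hcn3 and Pklr (y axes from 0) in each of 4 livers of the 4 genotypes (x axis), with the mean and SD in black. Htatip2 is at 685 to 986 in the 4 Tip30+/- livers against 1835 to 2210 in wild type, and Hcn3 at 1047 to 1224 against 262 to 440.

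Processed copies are genes that arose when a spliced messenger RNA was copied back into the genome. They have no introns and can be almost identical to the gene they came from, so a short read may fit both. A pattern by library was seen in such copies of ferritin light chain, part of the shell that stores iron, with a few others beside them. The stretches below show where 3 of the ferritin copies differ from Ftl1. They are read from GENCODE M21 transcripts (GRCm38), in the sense direction of each gene, at coding bases 385 to 504 of Ftl1. Capitals in a copy mark bases that differ from Ftl1, and capitals in Ftl1 mark every position at which a copy shown differs.
Ftl1: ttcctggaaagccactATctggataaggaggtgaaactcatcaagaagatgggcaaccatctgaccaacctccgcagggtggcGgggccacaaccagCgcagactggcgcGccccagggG
Ftl1-ps2: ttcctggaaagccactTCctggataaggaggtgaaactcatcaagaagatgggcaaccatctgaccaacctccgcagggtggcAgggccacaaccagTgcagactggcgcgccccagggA
Ftl2-ps: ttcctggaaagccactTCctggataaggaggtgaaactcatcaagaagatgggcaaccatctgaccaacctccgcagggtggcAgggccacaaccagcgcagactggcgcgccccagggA
Gm15590: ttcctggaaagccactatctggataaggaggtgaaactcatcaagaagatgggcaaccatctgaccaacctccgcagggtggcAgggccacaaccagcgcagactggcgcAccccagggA
Over these 120 bases Gm15590 differed from Ftl1 at 3, Ftl2-ps at 4 and Ftl1-ps2 at 5. The stretch was picked for having the most differences within set limits, and the copies are closer over their whole match to Ftl1. Identity there was 99.1% for Gm15590, 98.7% for Ftl2-ps and 97.8% for Ftl1-ps2.

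Ftl2-ps (chr4:125504288-125504839) stood at 3593, 3161, 2843 and 3131 in wild type 1 to 4. It stood at 35932, 32092, 39299 and 3109 in Tip30+/- 1 to 4. Tip30+/- 1 to 3 were thus about an order of magnitude above wild type, and Tip30+/- 4 lay among the wild-type livers. Gm15590 (chr17:6131854-6132405) read 2227, 1896, 1801 and 1811 in wild type and 15395, 12800, 14384 and 1967 in Tip30+/-. Gm6394, another processed copy (chr3:57717813-57718289), read 13.3, 8.41, 7.49 and 12.0 in wild type and 172, 153, 177 and 10.2 in Tip30+/-. Again the same 3 livers were high and Tip30+/- 4 was low.

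A further 4 such features followed. Ftl1-ps2 ran from 84.3 to 138 in wild type and stood at 1844, 1208, 1344 and 134 in Tip30+/- 1 to 4. Gm12164 ran from 112 to 158 and stood at 1394, 1014, 891 and 148. Mir692-1, a micro RNA hairpin whose annotated sequence resembles ferritin light chain, ran from 8.41 to 20.5 and stood at 319, 208, 203 and 16.4. All 3 had Tip30+/- 4 inside the wild-type range. Gm11478, a copy of Rpl13a, ran from 80.5 to 113 and stood at 157, 155, 183 and 95.2, so its separation was smaller. Over the 7 features Tip30+/- 4 lay at 0.977 to 1.22 of the wild-type mean.

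None of the 7 passed the limma test in the 4 against 4 comparison, and 6 of them made up most of the 9 genes called by edgeR. For Ftl2-ps the log2 difference was 2.61 (SE 0.61, limma adjusted p = 0.381), with 0.0220 by edgeR and 7.87e-07 by DESeq2. Without Tip30+/- 4 the difference was 3.49 and the limma adjusted p 1.75e-10, against a highest value of 0.999 when another mouse was left out. That fit called 8 genes in all: Htatip2, Hcn3, Ftl2-ps, Gm15590, Ftl1-ps2, Gm12164, Mir692-1 and Gm6394. Gm11478 did not pass in it. Leaving out Tip30+/- 4 was chosen as a setting with these values known.

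In the other 8 mice all 7 features separated the genotypes. The 7 were those called by edgeR in the main comparison or by limma in these other mice. Gm11478 entered by the second rule alone (edgeR adjusted p = 0.478 in the main comparison). Its limma call below was thus fixed by the choice, and its separation was favoured by it. Ftl2-ps stood at 3217 to 4379 in the 4 Ncoa5+/- livers and at 33585 to 42280 in the 4 Ncoa5+/-Tip30+/- livers. Gm6394 stood at 5.09 to 9.74 and at 120 to 198. By limma, Gm6394 and Gm11478 passed in that comparison (adjusted p = 0.0306 for each), beside Htatip2, 3 genes of 15022 (0.02%). So 7 of the 8 livers with 1 deleted Tip30 allele had high copies, and Tip30+/- 4 was the exception, although its Htatip2 and Hcn3 values were those of its group.

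**Figure D2:**
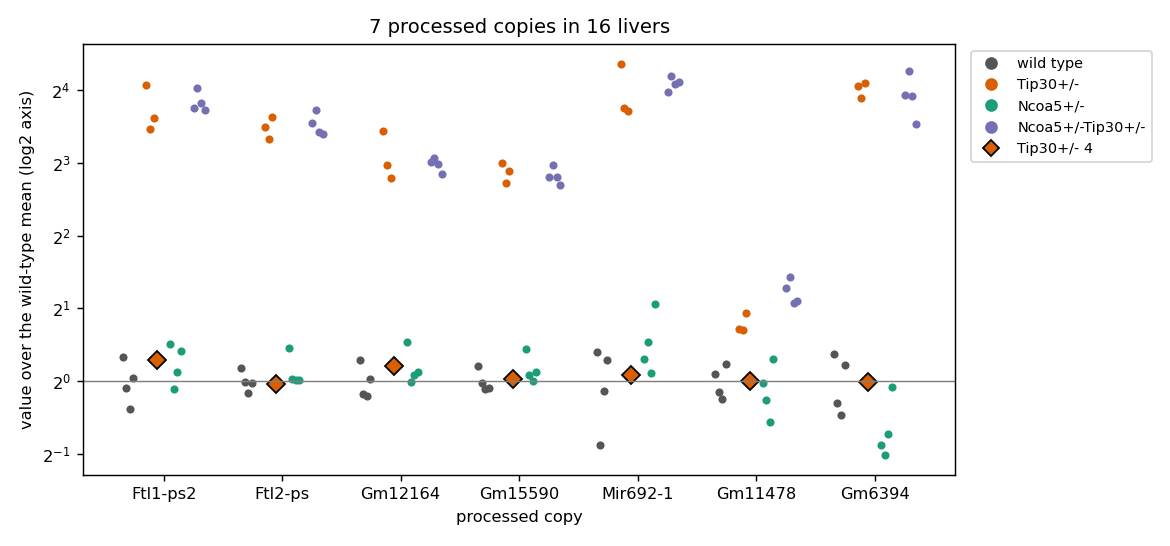
Value of 7 processed copies in 16 livers, divided by the wild-type mean of that copy (y axis, log2 scale), in groups by genotype. The diamond is Tip30+/- 4, at 0.977 to 1.22 of the wild-type mean, while the other 3 Tip30+/- livers and all 4 Ncoa5+/-Tip30+/- livers lie above 1 for every copy.

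The intact genes did not rise with the copies. Ftl1 itself (chr7:45457944-45459884) read 30303, 25829, 25099 and 26419 in wild type and 26881, 20164, 22841 and 26227 in Tip30+/-, which overlap. The best protein-coding match of the 5 ferritin features was not Ftl1 but LOC100862446 on chromosome 13, at 96.4% to 99.5% identity, against 94.6% to 99.1% to Ftl1. LOC100862446 read 1805, 1396, 1466 and 1614 in wild type and 1254, 889, 964 and 1590 in Tip30+/-, with its 3 lowest values in the livers whose copies were high (log2 -0.45, unadjusted p = 0.0127, adjusted p = 0.592). Fth1, the heavy chain of ferritin, differed by 0.12 on the log2 scale (adjusted p = 0.850).

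Ftl1, LOC100862446 and the 5 ferritin features, 7 genes in all, summed to 31420 to 38244 in wild type. The sum was 83019, 68375 and 79925 in Tip30+/- 1 to 3 and 33192 in Tip30+/- 4. Ftl1 held 79.2% to 79.9% of the sum in wild type, 28.6% to 32.4% in Tip30+/- 1 to 3 and 79.0% in Tip30+/- 4. So the sum was higher where the copies were, while the values of Ftl1 itself overlapped between the groups. Whether the reads came from the copies or from another gene that resembles them was not tested.

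These are few among many copies. Of 864 tested copies with a best-matching gene, 8 lay over 2-fold higher and 4 over 2-fold lower in Tip30+/- livers, and their median log2 change was 0.03. In both backgrounds 6 were over 2-fold higher, beside 77 of all 15022 genes (0.513%). Of those 6, 5 were ferritin light chain copies, while 3 other ferritin copies were not over 2-fold. Ftl1 lies 4.30 Mb from Htatip2, and Rpl13a, the ribosomal protein gene matched by Gm11478, lies 4.63 Mb from it. Rpl13a differed by -0.42 (log2, adjusted p = 0.667).

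Genes of chromosome 7, which carries Htatip2, were examined after these values were seen. There 74 of 1159 genes did not overlap between the groups (6.38%), against 3.23% to 5.83% on other chromosomes. At an unadjusted p below 0.05 the share was 10.4%, against 5.11% to 9.47% elsewhere. Of the 35 genes with an unadjusted p below 0.001 (0.233% of all tested), 12 lie on chromosome 7 and 0 to 3 on any other. DESeq2 placed 13 of its 43 calls there, against 0 to 5 elsewhere. Chromosomes differ in size, with 346 to 1179 tested genes on the others, apart from 16 mitochondrial genes. All chromosomes but 7 together held 13845 genes, with 23 under 0.001 and 30 DESeq2 calls. Chromosome 11, with 1179 genes, held 3 of each. In the other 8 mice 7 of 38 genes under 0.001 (0.253%) lie on chromosome 7, against 0 to 4. The share without overlap there was 6.38%, against 2.89% to 6.61% on other chromosomes, so chromosome 7 was not the highest by that measure. By distance from Htatip2, 8.39% of 143 genes within 10 Mb did not overlap, 10.5% of 133 at 10 to 20 Mb, 4.09% of 342 at 20 to 40 Mb, 8.57% of 210 at 40 to 60 Mb and 4.83% of 331 beyond. DNA inherited together with the deleted allele and the loss of the allele itself cannot be told apart in this design.

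The immediate neighbours of Htatip2 did not pass. Within 1 Mb lie Zdhhc13, Csrp3, E2f8, Gm2788, Nav2 and Prmt3. Gm2788 alone had groups that did not overlap, at 544, 617, 621 and 897 in wild type and 513, 532, 126 and 514 in Tip30+/-. Its low value in Tip30+/- 3 set most of the log2 difference of -0.85 (adjusted p = 0.762). The other 5 overlapped, and E2f8, a transcription factor of the cell cycle, ranged from 127 to 282 in wild type and from 42.8 to 259 in Tip30+/-.

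The 12 genes under 0.001 on chromosome 7 include Lrfn3, Dhdh, Htatip2, Gm34121, Snrpn, Nsmce3, Synm, P2ry2, Trim68, Trim6 and Bnip3. Dhdh, a dihydrodiol dehydrogenase 4.29 Mb from Htatip2, read 3316, 2808, 3883 and 4571 in wild type. It read 6159, 6479, 6886 and 4910 in Tip30+/-, where Tip30+/- 4 came nearest to wild type, as in the copies. Snrpn, an imprinted gene of small nuclear ribonucleoproteins, stood at 57.1 to 73.6 in wild type and at 129 to 171 in Tip30+/-. All 12 but Htatip2 missed the limma threshold, with adjusted p from 0.0970 (Trim6) to 0.290 (Gm34121).

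**Figure D3:**
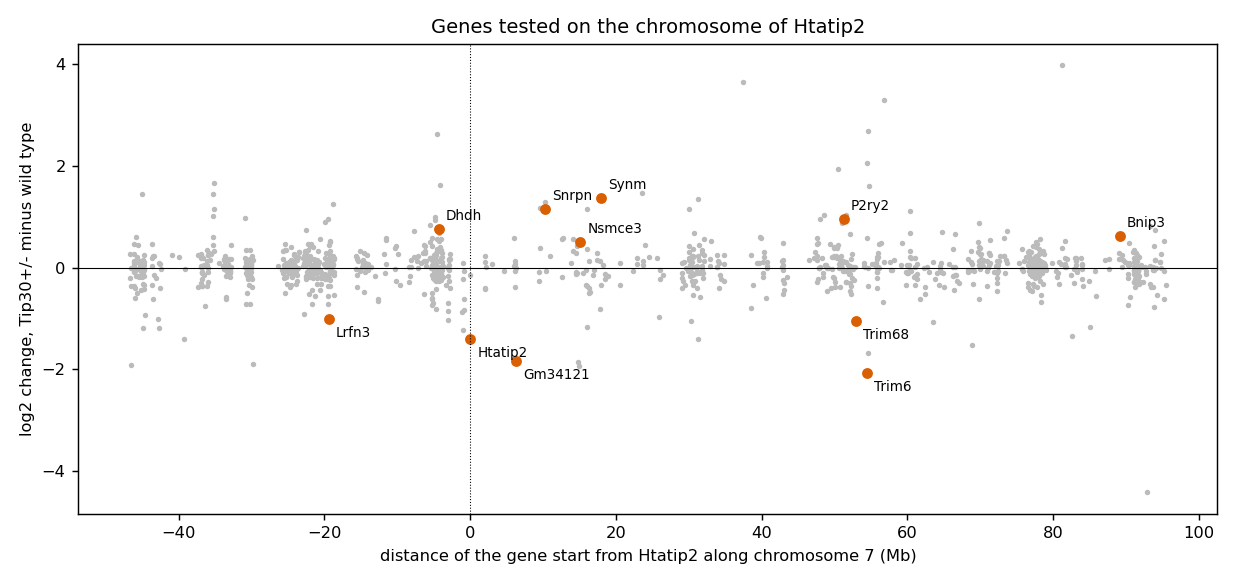
Log2 change (Tip30+/- minus wild type, y axis) of genes tested on chromosome 7, against the distance of the gene start from Htatip2 in Mb (x axis). Orange points are the named genes with an unadjusted p below 0.001, of which Htatip2 alone passed after adjustment.

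Beyond the genes that passed, 24 genes had groups that did not overlap and the smallest unadjusted p in each direction, 12 higher and 12 lower. They are given as values, since none passed the limma test. Of these, P2ry2 and Gna14 belong to signalling through Gq proteins. P2ry2, a receptor for extracellular nucleotides, read 284, 292, 340 and 270 in wild type and 771, 488, 488 and 581 in Tip30+/-. Gna14, a Gq-family alpha subunit, read 55.2, 39.96, 51.5 and 65.4 in wild type and 140, 128, 107 and 108 in Tip30+/-. In both genes all 4 Tip30+/- livers were high, including Tip30+/- 4. Their log2 differences were 0.95 (SE 0.18) and 1.19 (SE 0.23), with a limma adjusted p of 0.193 and a DESeq2 adjusted p of 0.000529 and 0.000670.

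On the lower side stood Wnt5a, a ligand of noncanonical Wnt signalling. It read 264, 234, 206 and 212 in wild type and 122, 140, 126 and 123 in Tip30+/-, a tight group well below the other. Its log2 difference was -0.83 (SE 0.16, limma adjusted p = 0.193, DESeq2 0.000313). Trim6, a member of the tripartite motif family of ubiquitin ligases, read 29.7, 83.1, 32.8 and 62.8 in wild type and 7.67, 17.1, 8.75 and 10.2 in Tip30+/- (log2 -2.08, SE 0.36). It was called by edgeR (adjusted p = 0.0486) and by DESeq2 (7.92e-05), and missed in limma (0.0970), with 0.556 as the highest over the settings. Trim68, of the same family, stood at 93.6 to 155 in wild type and at 43.5 to 86.4 in Tip30+/-. Tnfaip2, which is induced by tumour necrosis factor, stood at 608 to 934 and at 360 to 504.

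Metabolic and structural genes were among the higher ones. Cyp46a1, a cholesterol 24-hydroxylase best known from brain, read 70.6, 55.7, 107 and 101 in wild type and 214, 169, 185 and 162 in Tip30+/-. Synm, which encodes the intermediate filament protein synemin, read 48.1, 35.8, 26.2 and 21.5 against 106, 66.3, 88.5 and 73.7. Nsmce3, a subunit of the SMC5/6 complex of DNA repair, stood at 639 to 786 against 883 to 1090. Fgfrl1, an FGF receptor without a kinase domain, stood at 717 to 1253 against 1408 to 1692. Tmem184b stood at 1466 to 1792 against 1969 to 2455, and the zinc finger gene Zfp420 at 24.9 to 39.3 against 54.6 to 66.6. These 6 had log2 differences of 0.46 to 1.36.

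The other lower genes include a transport channel and trafficking proteins. Trpm6, a magnesium channel, read 138, 115, 11.2 and 57.6 in wild type and 4.26, 6.03, 6.81 and 4.10 in Tip30+/-. Wild type 3 lay near the Tip30+/- livers while the pair low in Zhx2 lay highest. Arl2bp, a partner of the small GTPase ARL2, showed the same order, with 148, 123, 25.3 and 90.3 against 23.0, 16.1, 19.4 and 10.2. Plppr1 stood at 25.3 to 147 against 7.03 to 21.5. Abtb2 stood at 1053 to 1317 against 549 to 703, the cell adhesion gene Lrfn3 at 483 to 837 against 252 to 431, and Rab11fip4, an effector of the recycling GTPase RAB11, at 276 to 415 against 160 to 216. Tmed3, of early secretory vesicles, stood at 728 to 923 against 418 to 579, and the Mediator subunit Med24 at 753 to 823 against 524 to 611.

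Several genes of the largest log2 change with groups that did not overlap differed most from wild type 1 and 2. H19, an imprinted fetal RNA, read 615, 648, 27.1 and 26.7 in wild type and 2.56, 4.02, 7.78 and 8.19 in Tip30+/-. Sdk1, a cell adhesion gene, read 224, 195, 8.43 and 8.60 and 1.71, 4.02, 7.78 and 1.02. Nox4, an NADPH oxidase, was listed at 0 in wild type 1 and 2 and at 77.7 and 71.4 in wild type 3 and 4, and at 90.4 to 138 in Tip30+/-. Slc10a2, a bile acid transporter, read 119, 35.8, 393 and 214 against 466, 437, 739 and 955. In H19, Sdk1 and Nox4 the wild-type pairs stood far apart, while in Slc10a2 wild type 1 and 2 also differed widely from each other. Nat8f7 and Fam198a followed, with log2 differences of 1.58 and 1.02 without wild type 1 and 2, and of 5.54 and 2.80 without wild type 3 and 4.

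The same deletion in the other 8 mice gave differences of the same sign for all 24 genes, the 12 higher and the 12 lower. Over all genes tested 56.96% had the same sign. In the wider set from which the 24 were ranked, 158 of 248 higher genes (63.71%) and 233 of 284 lower genes (82.04%) kept their sign. The medians of that set in the other mice were 0.07 and -0.16. At an unadjusted limma p below 0.05, 3 of the 12 higher and 5 of the 12 lower genes differed between backgrounds, against 4.18% of all genes. The median of the 12 higher genes was 0.92 in the main comparison and 0.59 in the other mice, and that of the 12 lower genes -1.01 and -0.39. The genes were chosen by their values in the main comparison, which favours larger differences there and so differences between backgrounds. The limma p used for the ranking took its spread from all 16 libraries. The choice thus also favours genes of little spread in the other mice, where groups then overlap less readily. Groups did not overlap in the other mice for 7 of the 24, Gna14, Dhdh, Synm and Cyp46a1 higher and Wnt5a, Trim6 and Trpm6 lower, beside 715 of 15022 genes (4.76%). Over all genes 39 (0.26%) had groups that did not overlap the same way in both backgrounds, and 8 of them lie on chromosome 7. That is 0.69% of its genes, against 0% to 0.728% on other chromosomes, with chromosome 8 the highest.

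For Hcn3 the other mice read 674, 1117, 890 and 498 in Ncoa5+/- and 1275, 1754, 2134 and 1990 in Ncoa5+/-Tip30+/-. These groups did not overlap either, and the log2 difference was 1.21 (limma adjusted p = 0.172). Htatip2 read 2910, 2066, 2331 and 2562 against 837, 1088, 991 and 991 (log2 -1.33, adjusted p = 0.000141). The test of the difference between backgrounds called 0 genes by limma and by edgeR and 1 by DESeq2, with 628 genes (4.18%) at an unadjusted p below 0.05. Its log2 estimate was -0.53 for Hcn3 (adjusted p = 0.952) and 0.08 for Htatip2 (adjusted p = 0.978). P2ry2 read 268, 349, 313 and 231 against 244, 399, 319 and 405, which overlap, and the difference between backgrounds was -0.73 (unadjusted p = 0.0110, adjusted p = 0.952). Trim68 read 136, 175, 126 and 166 against 132, 129, 166 and 142, which also overlap. Its log2 difference in these mice was -0.08, and the limma test between backgrounds gave an unadjusted p of 0.00431.

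**Figure D4:**
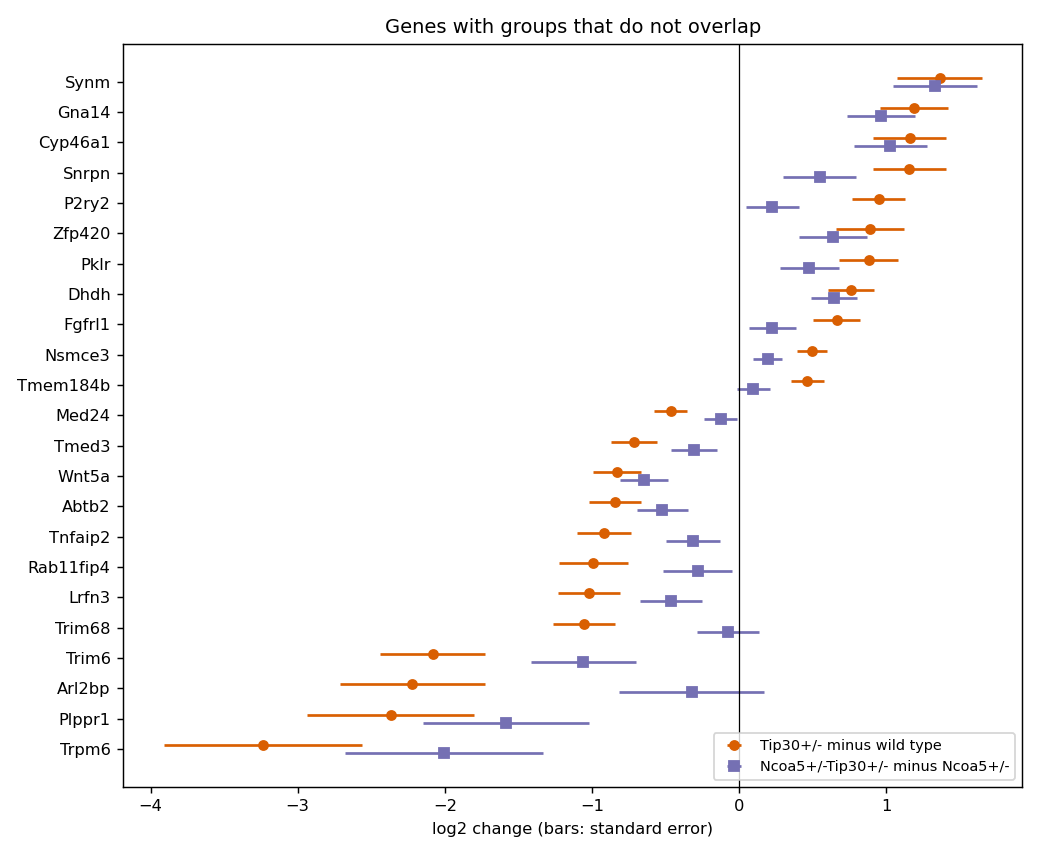
Log2 change (x axis, bars are SE) of the named genes of smallest unadjusted p whose groups did not overlap, in Tip30+/- minus wild type (circles) and in Ncoa5+/-Tip30+/- minus Ncoa5+/- (squares). All pairs shown have the same sign, and the squares mostly lie nearer to 0.

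Few members of the pathway lists stood apart, and of the 678 members of all 37 lists tested only Hcn3 passed in limma. Over all genes tested 2.04% had groups that did not overlap with Tip30+/- higher and 2.45% with it lower, 3.52% and 3.84% had an unadjusted p below 0.05, and 52.5% had a positive difference. The median log2 change was 0.01, and list medians are set beside it. For 20 of the 37 lists the median without wild type 1 and 2 and that without wild type 3 and 4 had opposite signs, and both are given for these. In the other 8 mice 19 of the 37 medians had the opposite sign to the main comparison, and the median over all genes was -0.02. Among lists that kept their sign there were interferon (-0.32), heat shock (-0.37), cell cycle (-0.20) and clock genes (0.14). So did glycolysis (0.20) and fatty acid synthesis (0.17). Among those that turned were the lists of PPAR-alpha targets (-0.16), tumour and fetal markers (-0.59), Kupffer cells (-0.31), hepatocytes (-0.03) and sinusoidal endothelium (0.09).

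In the clock list, whose genes keep daily time in liver, 3 of 22 genes had higher groups that did not overlap and 0 lower, and the median was 0.26. It was 0.14 without wild type 1 and 2 and 0.14 without wild type 3 and 4. Bhlhe40, a repressor of the clock, read 2867, 2701, 3833 and 2152 in wild type and 4480, 4532, 4158 and 5466 in Tip30+/-. Dbp and Hlf, which are PAR-bZIP output factors, had log2 differences of 0.56 (SE 0.21) and 0.39 (SE 0.14). Per1 read 656, 304, 612 and 455 against 1057, 1872, 1075 and 541, and Arntl, the partner of CLOCK, 49.1, 70.5, 170 and 81.7 against 49.5, 29.1, 39.9 and 39.9. Per1 in Tip30+/- 4 lay inside the wild-type range. The time of day of collection was not given in the sources used here, and its part was not tested.

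Among 23 genes of glycolysis and ChREBP targets, 3 did not overlap and were higher, Pklr and Eno1 among them, and the median was 0.15. Eno1, an enolase, differed by 0.24 (SE 0.18). Of 27 genes of fatty acid and triglyceride synthesis 24 had positive differences and the median was 0.22. It was 0.47 without wild type 1 and 2 and -0.11 without wild type 3 and 4. Dgat2, which makes triglyceride, read 22111, 20966, 29990 and 27093 in wild type and 35608, 35581, 33263 and 32116 in Tip30+/-. It was the 1 member that did not overlap, and all 4 Tip30+/- livers were high (log2 0.46, SE 0.12, limma adjusted p = 0.423).

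Of 27 PPAR-alpha targets and fatty acid oxidation genes 23 had positive differences, with a median of 0.19, which was 0.03 without wild type 1 and 2 and 0.27 without wild type 3 and 4. In the other 8 mice 7 of the 27 were positive and the median was -0.16. Acot4 and Acot3, acyl-CoA thioesterases of peroxisomes, read 4774, 6054, 6140 and 2742 and 2761, 3502, 4150 and 1161 in Tip30+/- 1 to 4. Wild type stood at 2329 to 3264 for Acot4 and at 831 to 1767 for Acot3, so Tip30+/- 4 again lay inside wild type. Cyp4a14, a fatty acid hydroxylase, went the other way, at 7359, 16264, 8486 and 14841 in wild type and 5569, 5220, 7170 and 4936 in Tip30+/-. It was also without overlap in the other mice, at 4039 to 11275 against 1446 to 3766.

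Cholesterol genes had a median of -0.05, which was 0.13 without wild type 1 and 2 and -0.24 without wild type 3 and 4. Of the 23, 1 did not overlap, Srebf2, the main regulator of the pathway, at 3345 to 3697 in wild type against 2565 to 3292. In the bile acid list the median was 0.07, and -0.03 and 0.26 in the same order. Here too 1 of 23 did not overlap, Cyp8b1, the sterol 12-alpha-hydroxylase, at 7933, 7324, 6268 and 8538 in wild type and 3974, 4367, 3489 and 4446 in Tip30+/-, where all 4 livers were low. Slc10a1, the uptake transporter of bile acids, stood at 12365 to 17566 against 16663 to 18822.

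In the heat shock and unfolded protein list 1 of 24 genes was higher and 6 lower at an unadjusted p below 0.05, with a median of -0.20. The median was -0.15 without wild type 1 and 2 and -0.39 without wild type 3 and 4. Creld2, a stress gene of the endoplasmic reticulum, read 4980, 4202, 2065 and 2107 in wild type and 1236, 1502, 974 and 1654 in Tip30+/-. The groups did not overlap, with wild type 1 and 2 highest. Hspa5, the chaperone BiP, stood at 24620 to 43956 against 17301 to 28394. Herpud1, of protein degradation at the same membrane, was the member on the higher side, at 4055 to 7980 against 6472 to 11259.

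Of 25 interferon genes 5 were lower and 0 higher at an unadjusted p below 0.05, and 1 of 25 had a positive difference. The median was -0.23, but 0.03 without wild type 1 and 2 and -0.62 without wild type 3 and 4. Rsad2, an antiviral enzyme, read 315, 311, 155 and 251 in wild type and 131, 180, 123 and 115 in Tip30+/-. Usp18, which restrains interferon signalling, read 338, 305, 136 and 126 and 85.3, 137, 93.3 and 124, with wild type 1 and 2 apart from the rest. The cell cycle list, with 25 genes, had a median of -0.34, and 0.09 and -0.69 in the same order. Top2a, of DNA replication, read 85.9, 59.9, 38.4 and 25.8 against 15.3, 29.1, 37.9 and 22.5.

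Lists nearest to what is known of Tip30 held few members that stood apart. Of 24 genes of EGFR ligands, receptors and endocytosis, 1 did not overlap on each side, and the median was 0.04. Hbegf, a ligand of EGFR, read 27.6, 37.9, 60.9 and 31.8 in wild type and 27.3, 22.1, 21.4 and 16.4 in Tip30+/-. Egfr itself differed by 0.40 (log2, SE 0.43). Of 17 estrogen receptor genes 1 did not overlap, Hsd17b2, which inactivates estradiol, at 5434 to 6249 against 3554 to 5324. That list's median was 0.01, turned negative, to -0.04, under another scaling, and was 0.0045 without wild type 1 and 2 and -0.06 without wild type 3 and 4. Sult1e1, the estrogen sulfotransferase, read 2.05, 1.05, 24.3 and 3.44 against 14.5, 18.1, 35.0 and 25.6, with wild type 3 among the Tip30+/- values.

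In the Wnt list Wnt5a and Wnt4 were lower without overlap and Fzd1 higher, of 21 genes, with a median of -0.02, and of 0.02 without Tip30+/- 2. Wnt4 stood at 133 to 227 in wild type against 78.8 to 119, and the receptor gene Fzd1 at 451 to 520 against 570 to 762. In the list of Gq-coupled receptors and calcium signalling, 2 of 24 genes were higher and 2 lower without overlap, with a median of -0.03, and of 0.03 without wild type 1. The lower ones were Camkk2, which acts upstream of calmodulin-dependent kinases, at 843 to 1446 against 652 to 800, and the calcium pump gene Atp2b2 (log2 -1.47, SE 0.45). Of 20 p53 targets 1 did not overlap, Btg2, at 264 to 451 against 215 to 256, and the median was -0.08. The HCN list holds 2 tested genes, Hcn3 and Hcn2.

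The remaining pathway lists had from 0 to 2 members without overlap on either side. Medians were 0.16 for the growth hormone and STAT5 axis (24 genes), 0.08 for periportal genes (20) and -0.13 for acute phase genes (24). Oxidative phosphorylation (29) had 0.07. The list of the Zhx2 family and Zhx2-controlled genes (15), which includes Zhx2 itself, had 0.17. In the remaining lists the sign turned with the wild-type pair, and the value without wild type 1 and 2 is given before that without wild type 3 and 4. Insulin, glucocorticoid and fasting genes (24) had a median of 0.04, and of -0.03 and 0.18. Pericentral genes (22), expressed around the central vein, had 0.22, and -0.03 and 0.39. Genes of NF-kB and chemokines (17) had 0.0032, and 0.07 and -0.21. Xenobiotic metabolism (25) had 0.06, and -0.0049 and 0.15. NRF2 targets (22), of the oxidative stress response, had -0.08, and 0.11 and -0.20. Immediate early genes (23) had 0.12, and 0.12 and -0.02.

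Liver tumour and fetal markers (11) had a median of 0.17, which was 0.20 without wild type 1 and 2, -0.24 without wild type 3 and 4 and -0.19 without Tip30+/- 3. In the other 8 mice it was -0.59, with 1 of 11 positive. In this list 2 members were higher without overlap and 1 lower. Afp, the fetal serum protein, was higher, at a mean of 121 ± 34.1 (SD, n = 4) in wild type and 190.5 ± 24.8 (SD, n = 4) in Tip30+/-. H19, whose values are given above, was the lower one and had the largest difference of the list (log2 -4.43), with wild type 1 and 2 far above the rest.

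**Figure D5:**
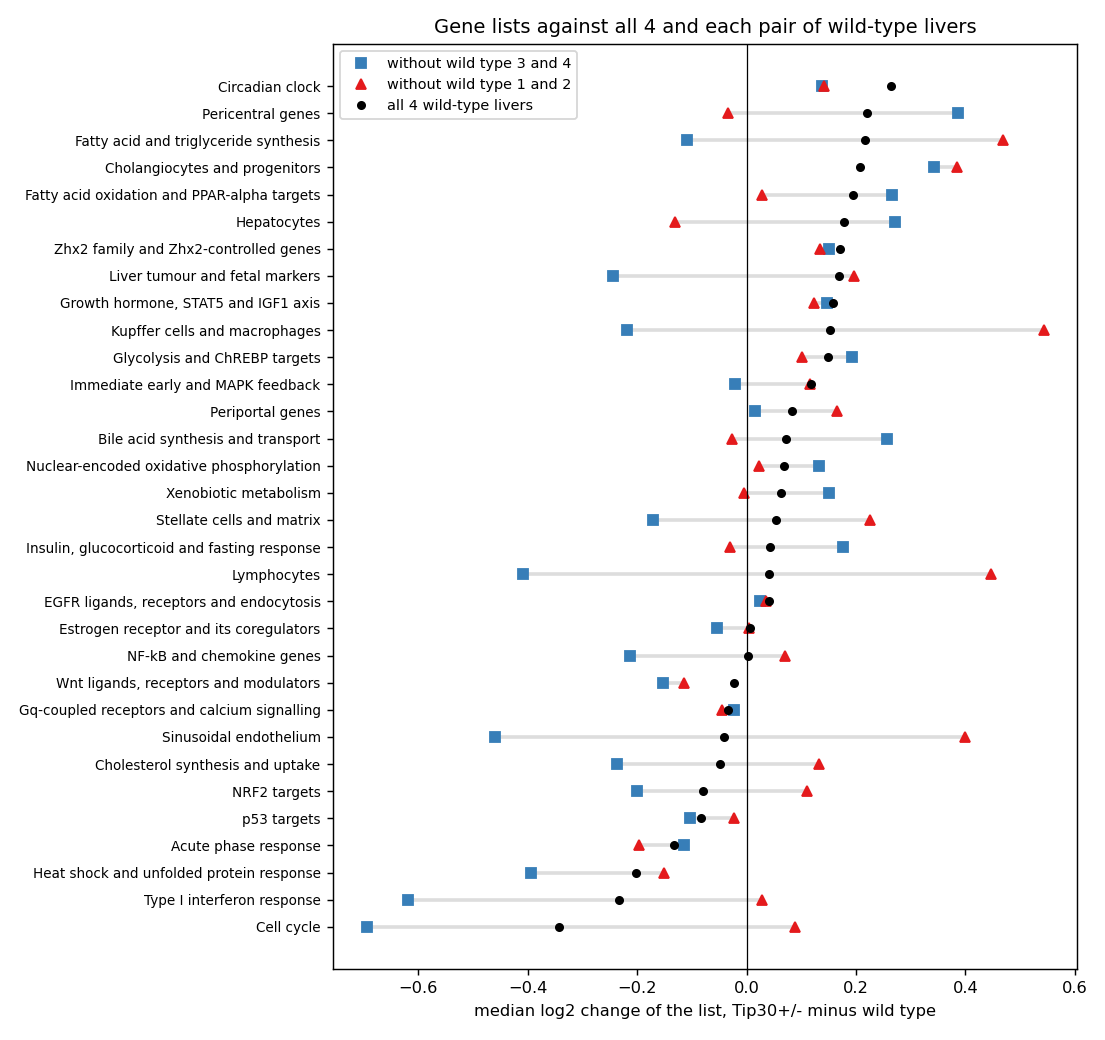
Median log2 change (Tip30+/- minus wild type, x axis) of each list with at least 10 tested genes, using all 4 wild-type livers (black), leaving out wild type 1 and 2 (red triangles) or leaving out wild type 3 and 4 (blue squares). The cell cycle, interferon, Kupffer, sinusoidal and lymphocyte lists are among those that change sign between the pairs, from -0.69 to 0.09 for the cell cycle.

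Markers of other cell types were also followed, because the pieces of liver could differ in what they hold. The summed value of 17 Kupffer cell and macrophage genes was 6220 in wild type 4, 12230 to 14470 in the other wild-type livers and 11750 to 14870 in Tip30+/-. Their median was 0.15, 0.54 without wild type 1 and 2 and -0.22 without wild type 3 and 4. Sinusoidal endothelial genes (15) summed to 7509 to 15300 and 8810 to 11130, with medians of -0.04, 0.40 and -0.46 in the same order. Lymphocyte genes (11) summed to 188 to 633 and 276 to 517, with medians of 0.04, 0.45 and -0.41. Hepatocyte genes (16) had medians of 0.18, -0.13 and 0.27. Wild type 4 had the lowest sum of the 8 livers in the Kupffer, sinusoidal and lymphocyte lists, and without it their medians were -0.11, -0.18 and -0.34. The part of cell makeup in the results was not tested.

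Stellate cell and matrix genes (15) had a median of 0.05, which was 0.23 without wild type 1 and 2 and -0.17 without wild type 3 and 4. Red blood cell genes (5) had 0.09, and 0.48 and -0.30 in that order. Pancreas and gut genes (3) had a median of 0.33 and neutrophil genes (2) of -0.93. Of the neutrophil genes S100a9 stood at 29.2 to 76.8 in wild type against 9.22 to 25.1. The 1 tested gene of the adipocyte and muscle list, Fabp4, differed by -0.11, and by 0.29 and -0.51 in that order. Among 10 cholangiocyte and progenitor genes Tip30+/- 3 stood alone. Epcam read 22.5, 26.3, 27.1 and 21.5 in wild type and 28.1, 39.2, 101 and 48.1 in Tip30+/-, and Cldn7, a tight junction gene, 2.05, 10.5, 12.2 and 10.3 and 11.1, 23.1, 64.2 and 20.5. The list's median was 0.21, and 0.11 without Tip30+/- 3. These 2 genes do not stand for the whole list, in which 6 of 10 had positive differences and the lowest log2 difference was -1.33. At an unadjusted limma p below 0.05, 2 members were higher and 1 was lower. In the other mice the list's median was -0.02, with 4 of 10 positive.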

How the data were processed

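The deposited unit is a signal value: the authors divided the reads of each gene by a DESeq2 size factor of the library, per the labels and the values. Reads were trimmed with Trimmomatic 0.36, aligned to GRCm38 with STAR 2.6.0c and normalized with DESeq2 1.28.1, per the submitters' processing notes. The counting program and annotation release were not given in the sources used here. Within a tolerance of 1e-04, 100% of values were whole multiples of 1 step per library, and whole reads were recovered from them. No 2 of the 8 libraries compared were copies (lowest chi-square per gene 23.5). The 2 most alike pairs were Tip30+/- 1 and 2, at that value, and wild type 1 and 2 (25.4), with the other pairs at 37.2 to 129. Whether mice within these pairs were related was not tested. Gene positions and transcripts come from GENCODE M21.

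The members, lists, named-gene rule and comparisons were chosen with earlier results of these data known. Genes with a mean of at least 10 over the 8 libraries were tested with limma 3.58.1 (trend, robust; R 4.3.3) on log2(value + 1), as 4 group means over all 16 libraries, two-sided, with Benjamini-Hochberg adjustment. The threshold was an adjusted p of 0.05. Fold changes on this scale understate those of low genes. DESeq2 1.42.0 called 43 genes, edgeR 4.0.16 called 9 and limma-voom 2 on the recovered reads. The chain was tested on simulated data.

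Named genes are those that passed, Htatip2, Hcn3, Ncoa5, Pklr and Zhx2, then, as values, the 12 higher and 12 lower genes of smallest unadjusted p with groups that do not overlap and a mean reaching 50 in the higher group, the 5 of largest log2 change each way among such genes, those called by both edgeR and DESeq2, the 3 members of smallest p of each list, and genes within 1 Mb of Htatip2. Predicted genes were left out of the ranked parts. Lists comprised 27 pathway and 10 cell type lists, 678 of 755 members tested. Processed copies and miRNA hairpins were matched to protein-coding transcripts with blastn 2.17.0 (at least 90% identity over 75% of the copy). Some items that the rule names are not reported here. The copies, chromosome 7 and other genes outside the rule were chosen after their values were seen. Alternatives covered pseudocounts, filters, scaling, count tests, covariates for Zhx2 and mouse tag, and each mouse left out.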

Additional observations from a re-analysis of the deposited data

Results flagged for a closer look

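Gm6394, a processed copy, stood at 10.2 normalized counts in Tip30+/- 4 and at 153 to 177 in the other 3 Tip30+/- livers. Its gap to the nearest of them was 0.854 of the group's whole range, above the critical value for 4 samples in Dixon's test. It was the 1 value so marked among 82 groups of 4, from 41 genes in the Tip30+/- and wild-type groups, and chance alone marks about 1 in 20 groups.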

How the results depend on the processing

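The count of genes passing in the main comparison was 43 by DESeq2, 9 by edgeR and 6 without the 4 libraries low in Zhx2, and 1 to 8 when a mouse was left out (leaving out wild type 2 or either of Tip30+/- 1 and 3 gave 1, leaving out wild type 3 gave 4, as did Tip30+/- 2, and leaving out Tip30+/- 4 gave 8). In the Ncoa5+/- background it was 31 by DESeq2, 8 by edgeR, 7 with moderation that was not robust, 9 with the 2 groups alone, 1 without the libraries low in Zhx2, and 1 to 2 without a mouse. The test of the difference between backgrounds gave 1 gene by DESeq2. Groups that do not overlap, 675 genes, came to 2360 without the libraries low in Zhx2 and to 836 to 1761 without a mouse, where fewer samples make separation easier. Hcn3 missed the threshold with Zhx2 as a covariate (1.59), and its values without a mouse ran from 1.62 to 1.87, missing without wild type 2 (1.62), Tip30+/- 1 (1.73) and Tip30+/- 3 (1.70); the cause was not tested. Htatip2 passed under every setting, from -1.53 to -1.26.

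Of 92 genes named, 88 kept their direction under all 23 settings tried for each and 30 were called in at least 1. The 4 that turned all had small differences. Without the libraries low in Zhx2 Prmt3 stood at 0.13, Ncoa5 at 0.0045 and Csrp3 at -0.36. Csrp3 stood at -0.11 with Zhx2 as a covariate and ran from -0.10 to 0.37 without a mouse. Nav2 stood at 0.039 with a mouse tag covariate and ran from -0.16 to 0.054 without a mouse, and Ncoa5 ran from -0.11 to 0.0013. For 41 genes and copies differences were also computed within the 2 tag ranges, and 38 had the same sign in both. Most of these genes have groups that do not overlap, which fixes the sign in any split of the mice. The count of 38 therefore says little about the tag ranges. Zhx2 (3.94 and -0.13), Ncoa5 (-0.17 and 0.15) and Gm11478 turned. The higher range holds 1 Tip30+/- liver, Tip30+/- 4. The 7 copies differed by 0.80 to 4.07 in the lower range and by -0.000323 to 0.45 in the higher one, where the difference of most copies was near 0. That split covers only the wild-type and Tip30+/- mice. Ncoa5+/-Tip30+/- 3 and 4 also carry tags of the higher range (4359 and 4530), and their Ftl2-ps was high, at 34359 and 33585. No paired analysis was possible because the labels give mouse tags and no shared replicate numbers. Depth limits genes near the level filter.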

Other observations

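Of 8 crystallin genes that reached 50 normalized counts in some liver, a family best known for structural proteins of the eye lens, 5 were read in 4 of the 16 livers and nearly absent from the others. Cryaa read 0, 0, 430 and 496 in wild type 1 to 4 and 0 in all 4 Tip30+/- livers. It read 383 in Ncoa5+/- 4 and 465 in Ncoa5+/-Tip30+/- 4, and at most 4.70 in the other 6 livers of those groups. Cryba1, Crybb1, Crygd and Cryge marked the same 4 livers, at 40.3 to 209 in wild type 3 and 4. Crybb3 read 149 and 155 in wild type 3 and 4, but also 64.2 in wild type 2, against 14.6 to 40.2 in Tip30+/-. Cryab, the small heat shock protein found in many tissues, did not follow, at 99.8 to 135 in wild type and 103 to 114 in Tip30+/-, nor did Crygn, at 49.1 to 94.6 and 33.3 to 44.7. The lower Cryaa and Cryge that DESeq2 called in Tip30+/- livers therefore rest on wild type 3 and 4.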
